A study of Drosophila melanogaster with 54 samples.

Results

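The 6 genes Cp15, Cp16, Cp18, Cp19, Cp36 and Cp38 encode chorion proteins, the bulk material of the outer Drosophila eggshell, and were taken by symbol from the 14250 genes of the input tables. Chorion proteins are made by the somatic follicle cells that surround each egg chamber, secreted onto the oocyte surface and cross-linked there. The chorion genes lie in 2 clusters whose DNA is amplified in follicle cells, and the X-linked pair Cp36 and Cp38 is transcribed early in chorion formation, whereas the group on chromosome arm 3L is transcribed late. Chorion mRNAs in a lysate of mature oocytes are messages of these somatic cells, which are shed when the egg leaves the ovary. In these bulk lysates fewer follicle cells and less chorion RNA per follicle cell cannot be told apart.

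Lysates of wild-type OregonR mature (stage 14) oocytes and of activated eggs were layered on sucrose gradients and collected as 6 fractions. From top to bottom these held mRNA in ribosome-free particles (RNPs), with the 40S subunit, with the 60S subunit or a single 80S ribosome, and in polysomes called low at 2 to 4 ribosomes per mRNA, medium at 5 to 9, and heavy at 10 or more. Each stage had 2 replicate gradients and 1 puromycin gradient, each with an unfractionated input, and 12 further libraries held ribosome footprints and RNA of oocytes, eggs and eggs from png1058/png1058 mothers, with and without cycloheximide. Oocytes were hand-picked from collagenase-treated ovaries of 4-day-old yeast-fed females. Eggs were laid within 2 h by virgin females kept with spermless twine males, and so were unfertilised, and for the gradients and inputs they were stripped of their chorion in bleach. Puromycin, which makes elongating ribosomes release the unfinished chain and leave the mRNA, was added at 2 mM to cleared lysates. Those lysates and gradients were made in other buffers, without cycloheximide and with an incubation at raised temperature, so the drug, the buffers and the incubation cannot be told apart. The labels do not say whether replicates came from separate flies, so the spread that p-values are read against may be technical.

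All 6 genes were present in all 6 input tables and in all 3 oocyte gradients, which listed 6297, 6111 and 6222 genes. As tested on the values, no gradient table held a gene below 4 in its heavy polysomes, so a gene that leaves them altogether is not listed. None of the 6 was listed in egg replicate 1, Cp15 and Cp18 were listed in egg replicate 2, and Cp15 alone was listed in the egg puromycin gradient. The footprint table held Cp15 and Cp16 among its 5842 transcripts. In the BDGP6 annotation Cp18, Cp15, Cp19 and Cp16 are neighbours in that order on the plus strand of 3L, and Cp36 and Cp38 are neighbours on the plus strand of X, beside the chorion gene Cp7Fc. Every one of the 6 genes has 2 exons, and the coding sequences are short: 345 nt in Cp15, 414 nt in Cp16, 516 nt in Cp18, 519 nt in Cp19, 852 nt in Cp36 and 918 nt in Cp38. Cp36 and Cp38 lie inside CG33223, a gene of the opposite strand that had only 0.545 to 2.13 RPKM in the inputs and was listed in 0 gradients.

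One library stood apart from its label. The library labelled egg puromycin input had 10500 genes above 0 RPKM against 7441 to 9026 in the other 5 inputs. Its Spearman correlations with them, across 6585 genes outside the eggshell and yolk lists, were 0.620 to 0.800, against 0.800 to 0.978 among the other 5. It held all 6 chorion mRNAs, while the gradient of the same label listed only Cp15. Gradients list only genes with at least 4 in heavy polysomes, a limit that inputs do not have. The library is named throughout as the library labelled egg puromycin input. In the labels its index sequence and that of the RNP fraction of the gradient of the same label are exchanged relative to the other gradients. The bearing of this on either value was not tested. Both puromycin inputs were left out of the main input tests because they came from another lysis buffer. Adding both puromycin inputs to the egg and oocyte groups ended every input call given below (limma adjusted p = 0.357 for Cp38 and 0.377 for the other 5), whereas adding the oocyte puromycin input alone ended none of these 6.

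Chorion mRNA made up a large part of the oocyte input and was all but missing from eggs. The 6 genes took 4.54% and 3.55% of all RPKM in oocyte replicates 1 and 2 and 2.39% in the oocyte puromycin input. Cp15 alone, which encodes a small late chorion protein, took 4.11%, 3.04% and 2.09%, and was the most abundant mRNA in each of the 3. Cp15 had 25160 and 19170 RPKM in the untreated oocyte inputs and 11100 RPKM in the oocyte puromycin input. In egg replicate 1 it was listed at 0, and in egg replicate 2 it stood at 0.1224 RPKM.

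The other 5 genes were far below Cp15. Cp18, also of the late group, had 1417 and 1719 RPKM in the untreated oocyte inputs. Cp19 had 499.7 and 577.8 RPKM and Cp16 423.8 and 510.5 RPKM. The ranges of these late genes overlapped, though Cp19 was above Cp16 within each of the 3 oocyte inputs. The early genes were lowest: Cp36 had 170.1 and 272.3 RPKM and Cp38 had 120.6 and 152.3 RPKM. The ranges of the early pair did not overlap each other, but in the oocyte puromycin input the order was turned, with 42.22 RPKM for Cp36 and 45.54 RPKM for Cp38. Each of the 6 was lower in the oocyte puromycin input than in either untreated one, from 0.191 times the untreated mean for Cp36 to 0.685 times for Cp18, a comparison with 1 library and no test. In that library the change from untreated inputs also moved with transcript length across 6568 genes outside the eggshell and yolk lists (Spearman 0.647), with a median log2 change of -0.50 over 939 transcripts under 1000 nt (the 4 late genes, not among them, are as short), and 0.31 over 2006 of 3000 nt or more. The part of length in the chorion values was not tested. Of 8 germline markers the yolk receptor gene yl was at 0.467 times its untreated mean and the other 7 at 1.04 to 1.76 times theirs.

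**Figure D1:**
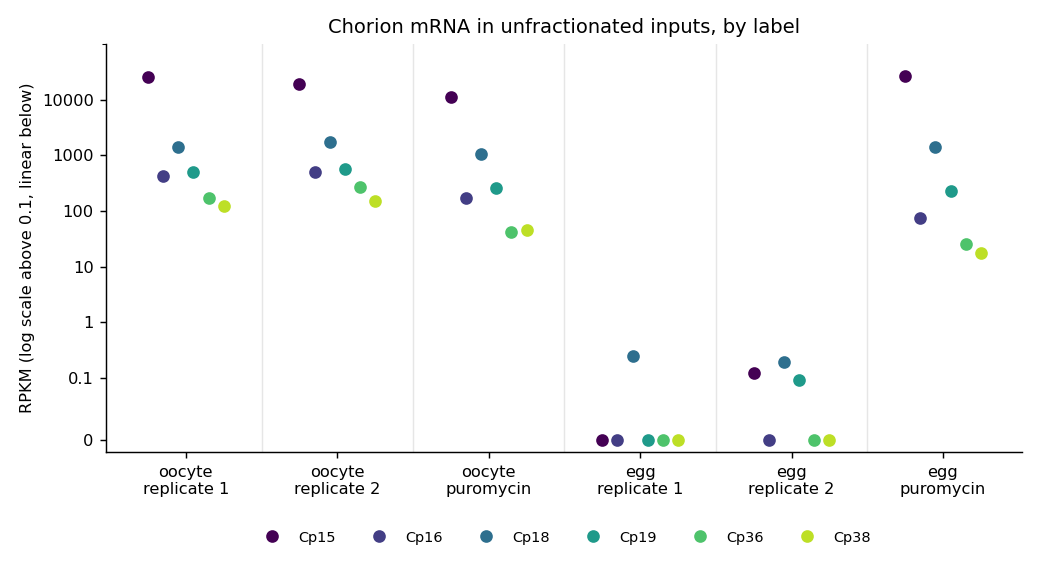
RPKM of the 6 chorion genes in the 6 unfractionated inputs, named by their labels, on an axis that is logarithmic above 0.1 and linear below, with 1 point per gene and library. Oocyte values lie between 42.22 RPKM (Cp36 with puromycin) and 25160 RPKM (Cp15), egg replicates between 0 and 0.25 RPKM, and the library labelled egg puromycin input between 17.59 and 26830 RPKM.

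In the untreated eggs Cp16, Cp36 and Cp38 were listed at 0 in both replicates, Cp19 at 0 and 0.09674 RPKM, and Cp18 at 0.25 and 0.1941 RPKM. All 6 genes fell between oocytes and eggs (2 inputs each, limma on log2(RPKM + 1)), where 3.05% of the 6622 genes tested fell and 3.47% were called in either direction. The changes for the early pair were -7.76 ± 0.31 (SE) for Cp36 and -7.09 ± 0.28 for Cp38, each with a limma adjusted p = 6.72e-08. For the other 4 they ran from -8.86 for Cp16 to -14.34 for Cp15. Because eggs were at or near 0, the size of each change depends on the 1 RPKM added. By size of fall Cp15, Cp18, Cp19 and Cp16 held ranks 1 to 4 among all genes tested, Cp36 held rank 7 and Cp38 rank 12. All 6 passed the filter on low values (a mean of at least 1 RPKM) through their oocyte inputs alone. With eggs at or near 0 these ranks largely restate the oocyte levels. The median change was -8.94 over the 6 genes and -0.09 over all genes.

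Other eggshell genes moved alike in part. Of 17 other eggshell genes in the inputs 16 passed the filter on low values. Of these 14 fell and 0 rose, where 3.05% of the 6622 genes tested fell, and their median log2 change was -3.40. Those at or near 0 in both egg inputs passed the filter through their oocyte values alone, so a rise could hardly be called for them. The vitelline membrane genes Vm34Ca, Vm26Aa and Vm26Ab, whose proteins form the inner eggshell layer, fell from 306 ± 93.4, 221 ± 37.0 and 178 ± 49.4 RPKM (SD, n = 2) to 0.0981 RPKM or less in each egg input. Femcoat, another chorion protein gene, fell from 88.5 ± 7.11 RPKM (SD, n = 2) and was listed at 0 in both egg replicates. By contrast the eggshell peroxidase gene pxt stood at 624 ± 4.88 RPKM before and 439 ± 27.0 RPKM after activation (SD, n = 2) and did not pass (limma adjusted p = 0.434). The gene clos, needed for terminal patterning through the eggshell and listed as CG42600, stood at 53.4 ± 4.32 and 61.5 ± 14.0 RPKM (SD, n = 2) and did not pass either (limma adjusted p = 0.76).

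All 3 yolk protein genes, which ovarian follicle cells and fat body express, fell, where 3.05% of the 6622 genes tested did. Of 8 germline markers 0 passed, which is close to the share over all genes, 3.47% called in either direction. Of 7 follicle cell genes whose products are not secreted, the transcription factor gene ttk had 40.18 and 38.03 RPKM in oocytes, nearly all of the list's sums of 45.56 and 42.98 RPKM. The adhesion gene Fas3 had 4.52 and 3.823 RPKM and the follicle cell transcription factor gene tj 0.30 and 0.594 RPKM. Of the 2 genes on that list that could be tested, Fas3 fell and ttk did not pass. The summed level of 6 muscle markers was 2.81 and 4.654 RPKM in the untreated oocyte inputs and 0 and 0.2482 RPKM in eggs. The 3 hemocyte markers were at 0 in the 4 untreated inputs, and the 2 fat body markers summed to at most 0.02 RPKM in them. The part of other somatic cells in these levels was not tested beyond these values.

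In the untreated oocyte gradients nearly all of each chorion mRNA was in polysomes, and more of it in medium and heavy polysomes than for almost any other listed gene. Values are shares of the gene's summed RPKM, as normalized by the authors, over the 6 fractions. Cp16 had 90.9% and 88.3% in medium and heavy polysomes in replicates 1 and 2, with only 4 and 21 listed genes above it. Cp18 had 88.4% and 81.8%, Cp19 87.1% and 78.3%, and Cp36 81.1% and 82.5%. Cp38 had 77.8% and 78.3%, and Cp15 had 82.3% and 72.1%, the widest gap between replicates.

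The median of all listed genes was 35.6% and 34.6% in the same gradients, below every chorion value. At most 54 genes of 6297 in replicate 1, and 96 of 6111 in replicate 2, had a higher share than the chorion gene in question. In the order of mean shares (Cp16, Cp18, Cp19, Cp36, Cp38, Cp15) each gene overlapped its neighbour, except that both Cp36 values lay above both Cp38 values. With low polysomes included the mean shares ran from 90.1% ± 4.77 (SD, n = 2) for Cp38 to 97.4% ± 1.28 for Cp16. Free RNPs held at most 2.01% of any chorion mRNA in either replicate, and 60S with 80S held 1.47% to 9.26%, where the median of all genes was 22.4% and 30.2%.

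Other mRNAs of like coding length were placed lower. Of the listed genes outside the eggshell and yolk lists with a coding sequence of 300 to 600 nt, a range that holds Cp15, Cp16, Cp18 and Cp19, 719 were in replicate 1 and 712 in replicate 2. Their median share in medium and heavy polysomes was 35.7% and 32.6%, and the 95th percentile 61.5% and 60.9%. Of these, 3 and 17 genes were at or above Cp15, and 0 and 8 at or above Cp16.

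**Figure D2:**
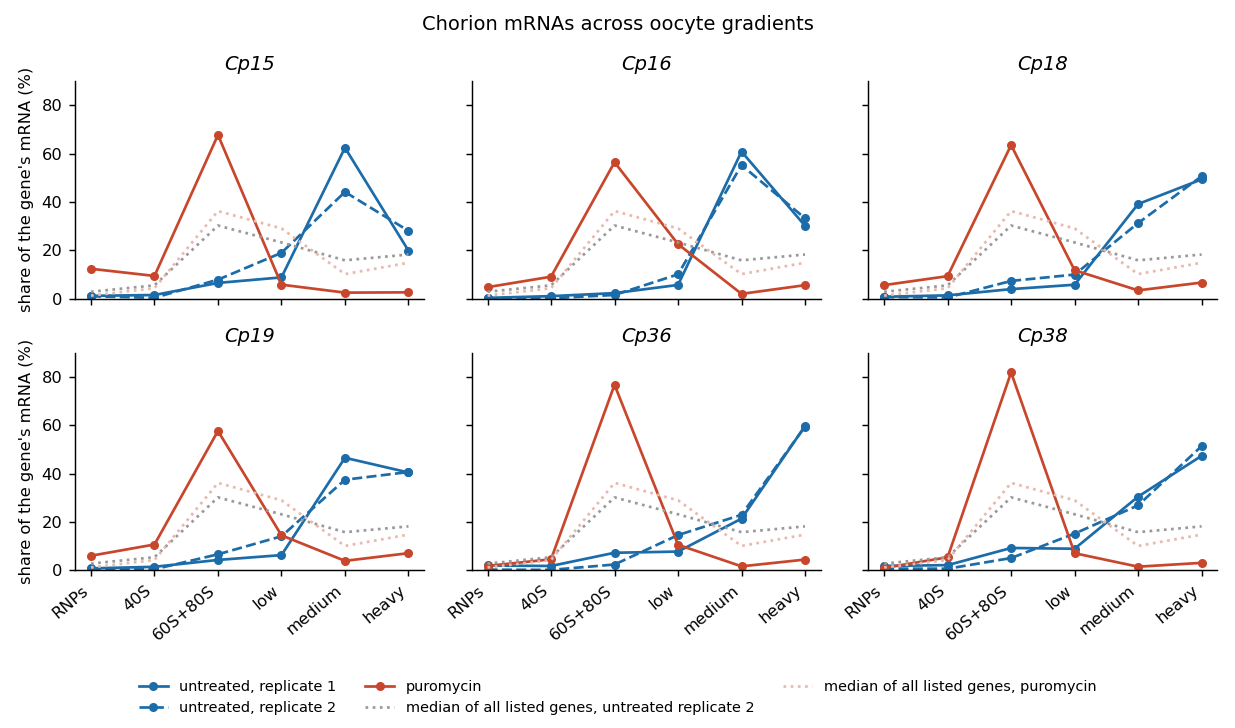
Share of each chorion mRNA (%) in the 6 gradient fractions, from RNPs to heavy polysomes, in untreated oocyte replicates 1 and 2 (blue, solid and dashed) and the oocyte puromycin gradient (red). Dotted lines are medians over all genes listed in untreated replicate 2 and with puromycin. Untreated profiles peak in medium polysomes for Cp15 and Cp16 and in heavy polysomes for Cp18, Cp36 and Cp38, and with puromycin all 6 peak in 60S with 80S.

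The 6 mRNAs differed in which polysomes they filled. The shortest, Cp15, was mainly in medium polysomes, with 62.4% and 44.1% there against 19.8% and 28.0% in heavy polysomes. Cp16 was alike, at 60.8% and 55.2% in medium and 30.1% and 33.2% in heavy polysomes. Cp36 was mainly in heavy polysomes, at 59.7% and 59.5% against 21.4% and 23.0% in medium polysomes.

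The other late genes, Cp18 and Cp19, lay between these patterns. Cp18 had 49.3% and 50.6% in heavy and 39.1% and 31.2% in medium polysomes, and Cp19 had 40.5% and 40.7% in heavy and 46.6% and 37.5% in medium polysomes. Cp38 had 47.4% and 51.4% in heavy and 30.5% and 26.9% in medium polysomes. Cp19 was thus the gene whose larger fraction changed between replicates.

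The heavy to medium ratio put the 6 genes in an order that nearly followed coding length. It was 0.318 and 0.636 for Cp15 and 0.495 and 0.602 for Cp16, both below the medians of all listed genes, 1.04 and 1.18. It was 0.868 and 1.09 for Cp19, 1.26 and 1.62 for Cp18, and 1.55 and 1.91 for Cp38. Cp36 had the highest ratio, 2.79 and 2.59, although its coding sequence is shorter than that of Cp38.

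The ranges of Cp15 and Cp16 overlapped, as did those of Cp18 and Cp38, and Cp36 stood above the other 5 in both replicates. Over the 6 genes the Spearman correlation of the mean ratio with coding length was 0.886, given as a description of 6 mRNAs that share the same gradients. Across listed genes with a coding length, outside the eggshell and yolk lists, it was 0.246 over 6239 genes in replicate 1. In replicate 2 it was 0.357 over 6040 genes, and these genes are not independent replicates. A heavy polysome of 10 ribosomes on the Cp15 coding sequence would have 1 ribosome per 34.5 nt, against 1 per 85.2 nt on that of Cp36.

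**Figure D3:**
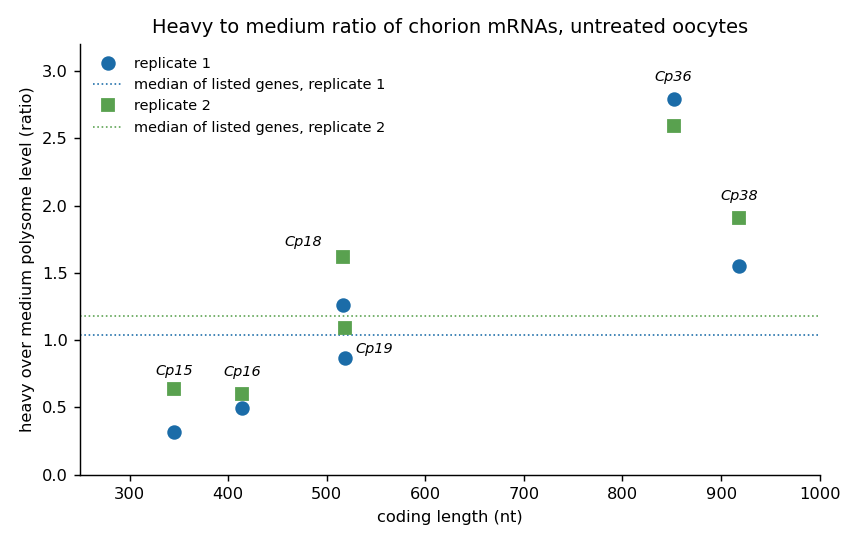
Ratio of the heavy to the medium polysome level of each chorion mRNA in untreated oocyte replicates 1 and 2, against coding length (nt), with the median ratio of all listed genes as dotted lines. Cp15 and Cp16, with 345 and 414 nt, lie at 0.318 to 0.636, and Cp36, with 852 nt, at 2.59 and 2.79.

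Chorion mRNA, mostly that of Cp15, was a large part of the mRNA in medium and heavy polysomes of untreated oocyte lysates. The 6 genes together made up 20.7% and 27.6% of the summed values of all listed genes in medium polysomes and 8.08% and 17.5% in heavy polysomes. Cp15 alone made up 19.5% and 25.7% of medium and 6.68% and 15.2% of heavy polysomes. In low polysomes the 6 genes made up 2.80% and 9.11%. Their part of the RNP fraction was 0.459% and 0.541%. With puromycin the 6 genes made up 2.09% of medium polysomes, 1.62% of heavy polysomes, 8.23% of 60S with 80S and 9.60% of the RNP fraction.

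The placement of these mRNAs was next compared with that in the puromycin gradient, where the drug, the buffers and the incubation cannot be told apart. There all 6 chorion mRNAs had left the medium and heavy polysomes almost entirely and collected in the 60S with 80S fraction. In the puromycin gradient 4.63% of Cp38, 4.98% of Cp15, 6.12% of Cp36, 7.43% of Cp16, 9.96% of Cp18 and 11.0% of Cp19 remained in medium and heavy polysomes. These values lay far below those of both untreated gradients, with no overlap for any of the 6 genes. They also lay below the median of all listed genes with puromycin, 25.2%, whereas untreated they lay above it.

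All 6 genes passed the test as lower (limma on log2 odds of medium and heavy polysomes, 2 untreated gradients and 1 with puromycin), where 58.6% of the 5829 genes tested were called lower and 1.8% higher. Log2 odds changed by -6.76 ± 0.55 (SE) for Cp16, -6.18 ± 0.32 for Cp38, -6.10 ± 0.38 for Cp36 and -6.04 ± 0.33 for Cp15. For Cp18 the change was -5.72 ± 0.49 and for Cp19 -5.31 ± 0.47, and the largest of the 6 limma adjusted p-values was 1.94e-14, for Cp19. The lone puromycin gradient was assumed to vary as the untreated pair did, and with 1 residual degree of freedom the spread was borrowed largely from other genes. The median change was -6.07 over the 6 genes and -0.69 over all genes tested. As deposited, Cp16, Cp38, Cp36 and Cp15 had the 4 largest falls of the 5829 genes tested. A gene is listed only with at least 4 in heavy polysomes, also with puromycin. A less abundant mRNA that left polysomes as fully could thus be missing from this ranking.

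How the median gene moved depended on the scaling of fractions, but the direction for the chorion genes did not. When every fraction was brought to the same total the median over all genes was 0.77, with 3505 genes higher and 720 lower, in place of 105 higher and 3415 lower as deposited. With gradients centred on their median 1241 were higher and 1514 lower, and with each fraction scaled to its total without eggshell and yolk genes, a choice made after seeing the data, 2367 and 905. Under these scalings all 6 chorion genes were still called lower, with log2 odds from -4.14 (Cp19, equal totals) to -6.07 (Cp16, centred). The order of falls was not kept with equal totals. There Femcoat, at -5.23, fell more than Cp15 (-4.89), Cp36 (-4.44) and Cp38 (-4.39). With heavy polysomes alone the calls held but the changes were smaller, from -2.98 for Cp16, -3.16 for Cp19 and -3.57 for Cp15 to -4.97 for Cp36.

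**Figure D4:**
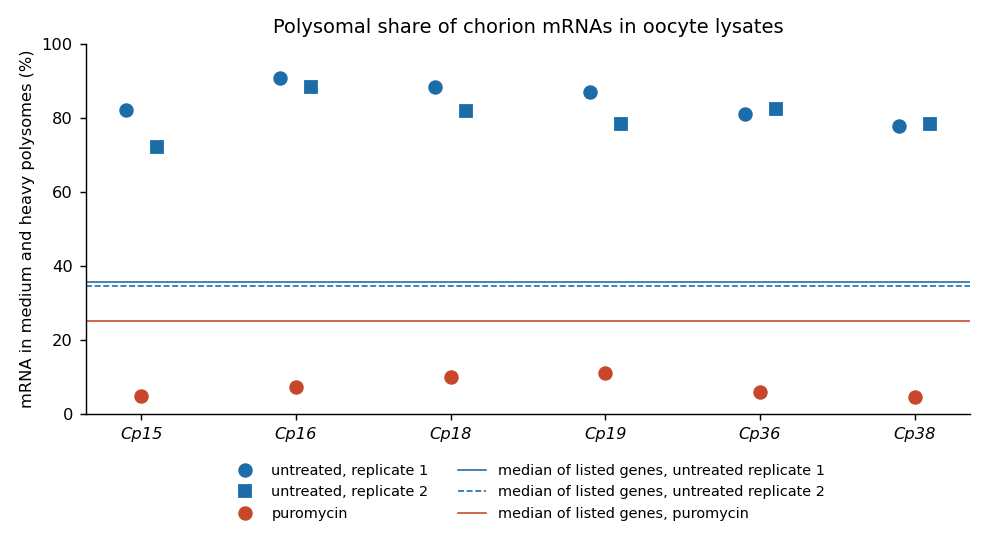
Share of each chorion mRNA (%) in medium and heavy polysomes in untreated oocyte replicates 1 and 2 (blue circles and squares) and with puromycin (red circles), with horizontal lines at the median of all listed genes in each gradient. Untreated points lie between 72.1% and 90.9% and puromycin points between 4.63% and 11.0%, on opposite sides of the medians.

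The mRNAs that left polysomes did not all arrive in the same place. In 60S with 80S puromycin left 81.9% of Cp38, 76.8% of Cp36, 67.7% of Cp15, 63.5% of Cp18, 57.7% of Cp19 and 56.4% of Cp16, against a median of 36.2% over all listed genes. The early X-linked pair was thus the most concentrated there, above the 4 late genes. Cp16 kept 22.5% in low polysomes with puromycin, more than the 7.8% ± 3.10 (SD, n = 2) it had untreated, while Cp15 had 5.73% there against 13.8% ± 7.21 untreated.

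Cp15 was the chorion mRNA found most in free RNPs with puromycin, at 12.3% against 1.09% and 0.910% untreated. The early pair showed no such shift, with 1.84% for Cp36 and 1.02% for Cp38 in puromycin RNPs against 2.01% and 0.289%, and 1.83% and 0.717%, untreated. In the 40S fraction Cp15 had 9.34%, Cp16 9.03%, Cp18 9.25% and Cp19 10.7%, while Cp36 had 4.58% and Cp38 5.41%, all above their untreated values of 2.16% or less. These per-fraction differences rest on 1 puromycin gradient and were not tested.

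Cp15 had the largest summed value over fractions of all listed genes in each oocyte gradient, 267300 and 571000 normalized RPKM untreated and 394900 with puromycin. For Cp16 (4385, 12500 and 7797), Cp19 (4892, 7599 and 5960) and Cp36 (1400, 6110 and 2481) the puromycin sum also lay between the untreated ones. For Cp18 (13290, 23280 and 29520) and Cp38 (896.3, 1633 and 2740) it lay above both. Thus no chorion sum, as deposited, was lower with puromycin than in both untreated gradients. Yet the oocyte puromycin input was lower than both untreated inputs for each gene. The sums were not rescaled, and the total over all listed genes and fractions was itself largest in the puromycin gradient. The part of these totals in the chorion sums was not tested.

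Other eggshell genes shifted to differing degrees. Of 10 listed in all 3 oocyte gradients, 8 were lower with puromycin and 0 higher, with a median of -3.69, where 58.6% of all genes tested were lower. With equal fraction totals 7 were lower and 1 higher, where 720 of the 5829 genes tested were lower and 3505 higher. With centred gradients 7 were lower and 1 higher, where 1514 of all genes were lower and 1241 higher. With totals taken without eggshell and yolk genes 9 were lower and 1 higher, where 905 of all genes were lower and 2367 higher. Among the 6 with the highest oocyte input, Femcoat went from 91.8% ± 0.711 (SD, n = 2) in medium and heavy polysomes to 16.4%, and Vm26Aa from 82.1% ± 2.69 to 16.2%. Vm34Ca went from 80.0% ± 10.4 to 23.3%, pxt from 78.4% ± 4.59 to 23.5%, and Vm26Ab from 81.2% ± 9.14 to 33.1% (SD, n = 2). These 5 were lower under each scaling, whereas clos, at 31.6% ± 0.881 (SD, n = 2) and 29.8%, was not called as deposited (limma adjusted p = 0.639) and was called higher under the other 3 scalings.

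The remaining 4 eggshell genes, named after their values were seen, differed among themselves. Vm32E and yellow-g had log2 odds changes of -5.92 and -5.63, within the range of the chorion genes. Vml, listed as CG34333, kept 40.3% in medium and heavy polysomes (-1.51, limma adjusted p = 0.00481), a call lost with equal totals and with centred gradients (limma adjusted p = 0.335 and 0.244). The gene psd, listed as Fcp26Aa, kept 58.3% and was not called (-1.41, limma adjusted p = 0.0919). The 3 yolk protein genes were lower under each scaling, with -3.54 for Yp1, -3.25 for Yp2 and -4.26 for Yp3 as deposited. Of 8 germline markers 2 were lower and 1 higher as deposited, where 58.6% of all genes tested were lower and 1.8% higher. With fractions brought to the same total 1 was lower and 6 higher, where 720 of 5829 genes were lower and 3505 higher.

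The genes whose 18 fraction shares over the 3 oocyte gradients were nearest to the mean chorion profile were Vm26Aa, CG9336, the glutathione transferase gene GstD1, the peroxiredoxin gene Prx2540-2 and CG1572. Their Euclidean distances from it were 21.8, 29.0, 31.0, 31.4 and 32.3 percentage points, where the median gene was 75.2 away. The chorion genes themselves lay 11.9 (Cp19) to 37.2 (Cp36) from their own mean. Vm26Aa, CG9336 and CG1572 had at most 0.1292 RPKM in the egg inputs, whereas GstD1 had 1305 and 1122 RPKM in oocyte inputs against 662.8 and 628 RPKM in egg inputs, and Prx2540-2 had 5.58 and 5.689 against 3.49 and 5.165 RPKM.

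The chorion mRNA listed in egg gradients had another profile. In egg replicate 2 the Cp15 sum over fractions was 1177, rank 520 of the 5605 genes listed there although the input of that replicate had 0.1224 RPKM. It was 0.440% and 0.206% of the oocyte sums, and the Cp18 sum was 45.7, or 0.344% and 0.196%. Of this Cp15, 28.5% was in medium and heavy polysomes, close to the median of 27.7% over all genes of that gradient, with 29.5% in 60S with 80S and 19.0% in RNPs. Cp18 had 32.3% in medium and heavy polysomes. In the egg puromycin gradient the Cp15 sum was 62.16, the lowest of its 5563 listed genes. Of it 24.4% was in medium and heavy polysomes, against a median of 9.07% over all genes of that gradient. A gene with so small a sum is listed only because its heavy value, here 8.145, passed 4, which favours a high share. By contrast the library labelled egg puromycin input held 26830 RPKM of Cp15. No chorion gene was listed in all 6 gradients, so no test of the polysomal share between eggs and oocytes was made.

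Ribosome footprints gave a measure of translation for the late genes Cp15 and Cp16 that does not use gradients. In oocytes Cp15 had 25200 footprint RPKM on 4181 RNA RPKM without cycloheximide, and 71100 on 7628 with it, a drug that stalls ribosomes on the mRNA. It ranked 3 and 1 among all transcripts by footprints, and it took 3.33% and 9.70% of the footprint table against 0.645% and 1.21% of the RNA table. Cp16 had 807.2 footprint RPKM on 99.91 RNA RPKM without cycloheximide, and 3943 on 288.3 with it.

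Translational efficiency, the footprint to RNA ratio, was high for both in oocytes. It was 6.03 and 9.32 for Cp15 and 8.08 and 13.7 for Cp16, without and with cycloheximide. Only 43 and 16 of the 5842 transcripts exceeded Cp15, and 18 and 6 exceeded Cp16.

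In eggs Cp15 had 22.58 footprint RPKM on 8.065 RNA RPKM without cycloheximide and 40.49 on 7.443 with it, and in png eggs 20.19 on 13.66 and 49.67 on 10.2. Cp16 had at most 0.845 RNA RPKM and 3.666 footprint RPKM in any egg library of either genotype. The RNA of both genes fell between oocytes and eggs, where 0.325% of the 5840 transcripts tested fell and 0.394% were called in either direction. The changes were -9.34 ± 0.28 (SE; limma adjusted p = 2.94e-07) for Cp15 and -6.71 ± 0.62 (limma adjusted p = 0.00119) for Cp16, on the log2(RPKM + 1) scale. The states with and without cycloheximide were the only repeat of a stage, so biological variation was not measured.

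The translational efficiency of both was also lower in eggs as fitted, where 24.7% of transcripts were called lower and 70.7% in either direction, but these calls did not hold throughout. The change was -1.07 ± 0.39 (SE; limma adjusted p = 0.0341) for Cp15 and -2.72 ± 0.88 (limma adjusted p = 0.0202) for Cp16. With 0.1 RPKM added in place of 1 the limma adjusted p was 0.0581 for Cp15 and 0.111 for Cp16. Without the egg library pair with cycloheximide it was 0.21 and 0.0728, and for Cp15 it was 0.131 without the egg pair that lacked cycloheximide.

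Between png eggs and wild-type eggs, where 6.15% of transcripts were called, the RNA of neither gene passed. The change was 0.55 ± 0.28 (SE; limma adjusted p = 0.276) for Cp15 and -0.47 ± 0.62 (limma adjusted p = 0.698) for Cp16. Leaving out either oocyte library pair, which narrows the estimated spread and leaves the change itself as it was, gave Cp15 a limma adjusted p of 0.0166 without the pair lacking cycloheximide and 0.0174 without the pair with it.

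**Figure D5:**
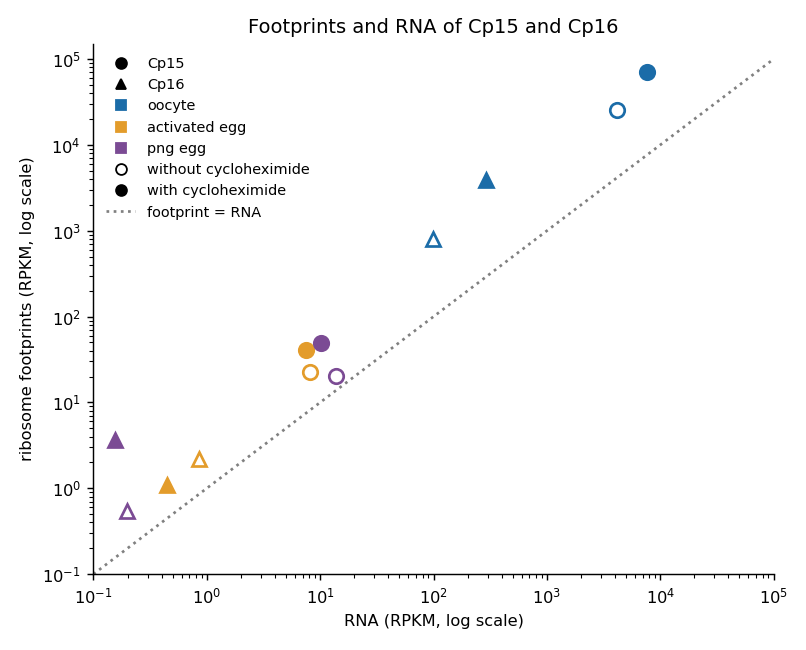
Ribosome footprint RPKM against RNA RPKM (both log axes) of Cp15 (circles) and Cp16 (triangles) in oocytes, activated eggs and png eggs, without (open) and with (filled) cycloheximide, 1 library pair per point. All points lie above the dotted line of equal footprint and RNA values, with the oocyte points at 99.91 to 7628 RNA RPKM and the egg points at or below 13.66.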

How the data were processed

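The authors deposited RPKM values for inputs, per the file headers, and for the gradients RPKM values normalized by the authors beside the fraction of each gene's mRNA found there, deposited from 0 to 1. That fraction equalled the value over the gene's sum within 0.0052. The footprint table held deposited RPKM values. TopHat 1.3.2, Bowtie, HTSeq, FastQC and the build dm3 are named, with no role given, in the submitters' processing notes. Per the labels' protocols libraries were poly(A)-selected and 5 ng of yeast mRNA was added to fractions. The labels name a further 5 ng luciferase spike-in for the puromycin and egg gradients and not for the untreated oocyte gradients, and the sources used here do not say how spike-ins entered the scaling. Read depth is unknown, so no counting interval was computed.

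Levels were tested as log2(RPKM + 1) over genes with a mean of at least 1 RPKM, and polysomal shares as log2 odds of medium and heavy polysomes over the remaining 4 fractions, after adding 1 above and below the line, over genes listed in all 3 oocyte gradients. Translational efficiency was the interaction of stage and assay in 1 model over 12 libraries, with a cycloheximide term per assay. Tests were two-sided and used limma 3.58.1 (lmFit, eBayes with a trend; R 4.3.3), with p-values adjusted by Benjamini-Hochberg over all features tested and a threshold of 0.05; "rose", "fell", "higher" and "lower" calls passed it. The fits were tested on simulated data. Other eggshell genes were named for the 6 highest oocyte input means, and like profiles for the 5 smallest distances. An Ensembl annotation of BDGP6 gave coding lengths, and no coordinates of it are printed as the files use dm3. Summaries used python 3.11.15, pandas 2.3.3, numpy 2.4.6 and matplotlib 3.10.9. The 6 genes and the lists were chosen with earlier results of these data known. Alternatives covered pseudocounts, filters, scaling, fractions counted as polysomal and samples left out.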

Additional observations from a re-analysis of the deposited data

Results flagged for a closer look

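In the library labelled egg puromycin input all 6 chorion genes lay above the untreated egg inputs, while in the oocyte puromycin input all 6 lay below the untreated oocyte inputs, so the same contrast went opposite ways in the 2 stages. On the log2(RPKM + 1) scale the egg difference, puromycin label minus the mean of the untreated replicates, was 14.63 for Cp15, 10.18 for Cp18, 7.77 for Cp19, 6.24 for Cp16, 4.70 for Cp36 and 4.22 for Cp38. The oocyte difference was -0.98 for Cp15, -0.54 for Cp18, -1.06 for Cp19, -1.42 for Cp16, -2.32 for Cp36 and -1.55 for Cp38. The difference between stages was not tested, as each puromycin input is 1 library. In the library labelled egg puromycin input the change from untreated eggs also moved with transcript length across genes (Spearman -0.507, with a median log2 change of -1.79 over 2006 genes of 3000 nt or more), and the summed level of 8 germline markers was 181.8 RPKM against 1680 and 1470 in the egg replicates. In the oocyte puromycin input the relation with length was of the other sign (Spearman 0.647, median -0.50 over 939 transcripts under 1000 nt and 0.31 from 3000 nt). The part of these in the chorion values was not tested.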

How the results depend on the processing

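Under the alternatives that gave a test, none turned the direction of a called chorion change. In the puromycin comparison all 6 genes kept their call under each of 9 tested alternatives, and with 1 untreated gradient left out, which leaves 1 against 1 and no test, their log2 odds ran from -4.86 to -6.96. In the input comparison they kept it except with both puromycin inputs added. Counts over all genes moved more. Inputs gave 230 calls, 370 with the replicate block, and 167 to 1880 with each library left out in turn (1880 without egg replicate 2). With both puromycin inputs added limma gave 0 calls, with 799 genes at an unadjusted p under 0.05. Same-numbered inputs did not deviate together across genes (correlation -0.028 over 6622 genes). With 1 pair of replicates per stage, this cannot show whether same-numbered inputs shared a batch. With the block all 6 chorion genes kept their calls. The puromycin gradients gave 3520 calls, 1698 with heavy polysomes alone and 1935 with low polysomes included. Footprint-series RNA gave 23 calls between stages, 56 with 5 RPKM added and 8 to 46 with a library pair left out, and 359 between genotypes, 609 with 5 RPKM added and 3 to 1756 with a pair left out. Translational efficiency gave 4131, and 3006 to 4493 with a pair left out. The cause of these shifts was not tested. No paired analysis was possible by replicate number for the puromycin gradients because their groups share fewer than 2 numbers, and the footprint model already held the cycloheximide state as a term. The model over all 6 gradients held none of the 6 genes, and the planned test of polysomal shares between stages was not run for that reason, nor were single footprint libraries left out apart from their pair. Unknown read depth leaves the egg values near 0 without a detection limit.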
